A study of Mus musculus with 18 samples.

Results

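Matrix metalloproteinases (MMPs) are zinc-dependent endopeptidases that cut collagens, other matrix proteins and cell surface proteins, and tissue inhibitors of metalloproteinases (TIMPs) are small secreted proteins that bind and block their active site. The genes described here are 6 MMP genes (*Mmp2*, *Mmp3*, *Mmp9*, *Mmp11*, *Mmp13* and *Mmp14*) and 3 TIMP genes (*Timp1*, *Timp2* and *Timp3*). They were chosen by name, as the rows of 19153 deposited genes whose Ensembl identifier maps to these symbols, and all 9 were found. Since the list was drawn up with results of these data known, the members are not a neutral sample of the family.

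RNA-seq was done on immortalized mouse myoblasts, the precursor cells of muscle fibres, and all cells carried a p53 knockout. Wildtype (WT) cells had received the Cas9 and GFP plasmid without a guide RNA, and LAP2α knockout (KO) cells the same plasmid with a guide RNA against the gene of LAP2α, a nucleoplasmic protein that binds lamin A/C. Both were pools of cells sorted for GFP in 2 rounds, not clones, and were grown on collagen-coated plates. Cells were proliferating in 20% serum and not yet confluent (Prol), had grown to near confluence in 20% serum at day 0 (D0), or had then been kept in 5% serum until day 2 of differentiation (D2). Each of the 6 groups had 3 libraries, with the replicate numbers of the labels. Nothing states that these came from separate cultures, so the p-values below measure the spread between these libraries.

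Most MMPs are secreted as inactive precursors. Mmp14 is anchored in the plasma membrane, where it activates the Mmp2 precursor with Timp2 as a bridging partner, while Mmp11 is already activated inside the cell by furin. Mmp2 and Mmp9 are gelatinases, which also cut basement membrane collagen, Mmp13 is a collagenase, and Mmp3 is a stromelysin with a broad range of substrates that can activate other MMPs. In muscle, MMPs are known for the remodelling of matrix that goes with migration and fusion of myoblasts and with repair after injury.

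The deposited values are CPM, the expected counts plus 0.5 scaled by the authors to the TMM-adjusted total of each library, and unadjusted library totals were 26437823 to 41619015 expected counts. At this depth, 3 counts corresponded to 0.0651 to 0.119 CPM. The gene of LAP2α, *Tmpo*, was at 228 to 260 CPM in KO Prol and 275 to 315 in WT Prol. The genotypes overlapped in D0 (191 to 259 in KO, 239 to 302 in WT) and in D2 (94.5 to 157 in KO, 106 to 157 in WT). These values add up all its transcripts and do not single out LAP2α. Libraries with replicate number 1 stood apart. Of 17672 genes tested, 12.4% had their highest value of the group in number 1 in all 6 groups, against 7.49% for number 2 and 0.424% for number 3. *Mmp2*, *Mmp14* and *Timp2* were among the former, with number 1 the highest in 6 of 6 groups each, and values without these libraries are given where a result rests on them. The muscle markers *Myod1* and *Des* were low before D2 (0.736 to 5.88 and 2.08 to 13.3 CPM), whereas *Myf5*, a transcription factor of muscle precursors, was at 11.6 to 37.1 CPM in all libraries. In these bulk samples, a change in the number of cells that express a gene and a change in its RNA per cell cannot be told apart.

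Promoter sequences are shown for *Mmp3* and *Mmp13*, which were near the detection limit before D2, and for *Mmp14*, which was abundant throughout. Each line gives the 100 bases before the transcription start in the sense direction, from the RefSeq table for GRCm38.p6, which held 7 of the 9 members. *Mmp3* is taken from chr9:7445722-7445821, *Mmp13* from chr9:7272414-7272513 and *Mmp14* from chr14:54431498-54431597, all on the plus strand. Capitals mark matches to the AP-1 motif TGANTCA, the PEA3 motif AGGAAG and the TATA box TATAAA.
Mmp3: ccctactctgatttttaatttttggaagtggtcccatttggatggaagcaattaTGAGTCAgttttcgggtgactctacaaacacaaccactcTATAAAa
Mmp13: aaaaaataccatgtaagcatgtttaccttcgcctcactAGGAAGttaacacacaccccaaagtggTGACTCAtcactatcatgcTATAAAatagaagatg
Mmp14: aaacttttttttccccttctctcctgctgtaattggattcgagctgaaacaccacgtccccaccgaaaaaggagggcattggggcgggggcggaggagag

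*Mmp3* and *Mmp13* were the only ones of the 7 members with a match to TGANTCA in the table's window of 300 bases around the start, at 46 and 35 bases before it, and also the only ones with TATAAA. Among all 32851 promoters of this length, searched on both strands, 7.81% held TGANTCA, 13.6% held TATAAA and 1.54% held both. AGGAAG was present in 5 of the 7 members and in 35.4% of all promoters. The E-box CAGCTG was present in *Timp2* alone and in 16.3% of all promoters. The 4 motifs do not overlap in these members, and a match describes letters only.

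*Mmp2*, on chromosome 8 (92827291 to 92853420, plus strand, GRCm38), was a transcript of low level before D2 and a high one thereafter. In WT Prol it was at 21.1, 6.58 and 6.09 CPM in replicates 1, 2 and 3, and in WT D0 at 28.7, 4.32 and 5.22. At D2 the WT libraries reached 444, 55.8 and 66.1 CPM. KO cells gave 12.4, 7.79 and 5.14 CPM in Prol, 18.1, 5.63 and 5.21 in D0 and 410, 174 and 60.4 in D2. All 6 D2 libraries were thus above all 12 earlier ones, while within each group replicate 1 was the highest. The log2 fold change between D2 and Prol was 3.64 (SE 0.90, adjusted p = 0.00575) in WT and 4.36 (SE 0.90, adjusted p = 0.00151) in KO with limma and Benjamini-Hochberg adjustment, or 12.5-fold and 20.6-fold. The log2 fold change was 2.68 in WT without WT D2 replicate 1 and 3.70 in KO without KO D2 replicate 1, and 3.26 and 4.02 without all libraries of number 1.

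*Mmp14* was the most abundant MMP per length of transcript in all 6 groups, with means of 33.8 to 37.9 CPM per kilobase in Prol and D0, 96.1 ± 68.0 in WT D2 and 121 ± 74.8 in KO D2 (SD, n = 3). Its CPM values were 141, 92.7 and 111 in WT Prol, 179, 60.4 and 89.6 in WT D0 and 565, 177 and 191 in WT D2. In KO they were 160, 101 and 97.1 in Prol, 188, 67.6 and 113 in D0 and 671, 286 and 224 in D2. D2 libraries were all above the Prol libraries of their genotype, but WT D2 overlapped WT D0 through replicate 1 of D0. The rise over Prol passed the test in KO (log2 fold change 1.59, SE 0.52, adjusted p = 0.0271) and not in WT (1.24, SE 0.52, adjusted p = 0.0817), where it was smaller but passed without the libraries of number 1 (0.86, adjusted p = 0.0309, range over all alternatives 0.000437 to 0.316). The KO call was lost when KO Prol replicate 2 or 3 or KO D2 replicate 1 was left out (adjusted p = 0.0775, 0.0903 and 0.123, range over all alternatives 4.70e-05 to 0.123).

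The relation between the 2 genes changed with differentiation. Per kilobase, *Mmp2* was 4.85% to 16.9% of *Mmp14* in the 12 Prol and D0 libraries and 28.4% to 82.7% in the 6 D2 libraries, so that the ranges did not overlap. Without the libraries of number 1 the ranges were 4.85% to 8.76% and 28.4% to 64.0%. Together they made up 65.1% to 82.0% of the summed level of the 6 MMPs before D2 and 76.8% to 94.1% at D2.

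*Mmp9*, the other gelatinase, was at 0.897, 1.72 and 0.523 CPM in WT Prol and at 1.21, 0.487 and 0.849 in KO Prol. In D0 the WT libraries had 1.42, 2.67 and 1.82 CPM and the KO libraries 1.84, 0.980 and 1.73. At D2 it was at 47.0, 7.09 and 6.26 CPM in WT and at 6.49, 3.00 and 4.68 in KO. The D2 values did not overlap with the earlier ones in either genotype, and WT D2 replicate 1 was far above the other 2 WT libraries. The log2 fold change between D2 and Prol was 3.78 (SE 0.65, adjusted p = 0.000384) in WT and 2.50 (SE 0.65, adjusted p = 0.00783) in KO. In WT it was 2.84 without WT D2 replicate 1.

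*Mmp3* and *Mmp13*, which lie near each other on chromosome 9 (7445822 to 7455975 and 7272514 to 7283331, both on the plus strand), were close to the detection limit in Prol and D0. *Mmp3* was at 0.0402, 0.0198 and 0.0506 CPM in WT Prol, at 0.0160, 0.0861 and 0.0196 in WT D0 and at 0.519, 2.96 and 1.66 in WT D2. In KO it was at 0.135, 0.0786 and 0.0499 CPM in Prol, 0.0714, 0.275 and 0.166 in D0 and 1.45, 1.64 and 0.770 in D2. Every D2 library was above every earlier library. Summed over 3 libraries, 183 expected counts in WT D2 stood against 2 in WT Prol, a ratio of 79.8 after scaling (95% interval of the counting error 21.8 to 664), and 148 in KO D2 against 7 in KO Prol, a ratio of 17.5 (8.30 to 44.4). Since *Mmp3* passed the filter of more than 5 counts in all 3 libraries of a group only through the D2 groups, it had to be higher there. Its reads can also be shared with the related gene *Mmp10*, which was looked for but had no row, so the counts of *Mmp3* are uncertain.

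*Mmp13* was at 0.120, 0.0593 and 0.0169 CPM in WT Prol, at 0.272, 0.224 and 0.254 in WT D0 and at 1.18, 0.806 and 1.08 in WT D2. The KO libraries had 0.225, 0.173 and 0.0499 CPM in Prol, 0.0714, 0.144 and 0.210 in D0 and 1.68, 0.597 and 0.511 in D2. Again all D2 libraries were above all earlier ones, though all values were low. The ratio of summed counts between D2 and Prol was 18.5 in WT (106 against 5 counts, 95% interval 7.68 to 58.1) and 6.19 in KO (97 against 13 counts, 3.45 to 12.0). On the log2 scale the fitted changes were 4.35 (adjusted p = 0.000267) and 2.68 (adjusted p = 0.00957), and those of *Mmp3* 5.32 (adjusted p = 8.03e-05) and 3.92 (adjusted p = 0.00108), but for values this low they depend on the added 0.5 counts. The KO call of *Mmp13* was lost without KO Prol replicate 3 (adjusted p = 0.0608, range over all alternatives 0.00154 to 0.0608).

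*Mmp11* varied least among the MMPs. It was at 27.9, 28.5 and 22.7 CPM in WT Prol, 39.0, 22.4 and 18.7 in WT D0 and 41.6, 40.9 and 38.8 in WT D2. KO cells had 25.7, 25.6 and 21.5 CPM in Prol, 32.8, 22.7 and 20.3 in D0 and 41.2, 47.7 and 41.5 in D2. The D2 libraries lay above the Prol libraries in both genotypes, and the log2 fold change of 0.84 in KO passed the test (SE 0.24, adjusted p = 0.0127) while that of 0.62 in WT did not (SE 0.24, adjusted p = 0.0582). Leaving out KO Prol replicate 3 or KO D2 replicate 2 ended the KO call (adjusted p = 0.0572 and 0.0509, range over all alternatives 0.00120 to 0.0572). *Chchd10* overlaps *Mmp11* on the opposite strand, and reads were counted by strand.

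**Figure D1:**
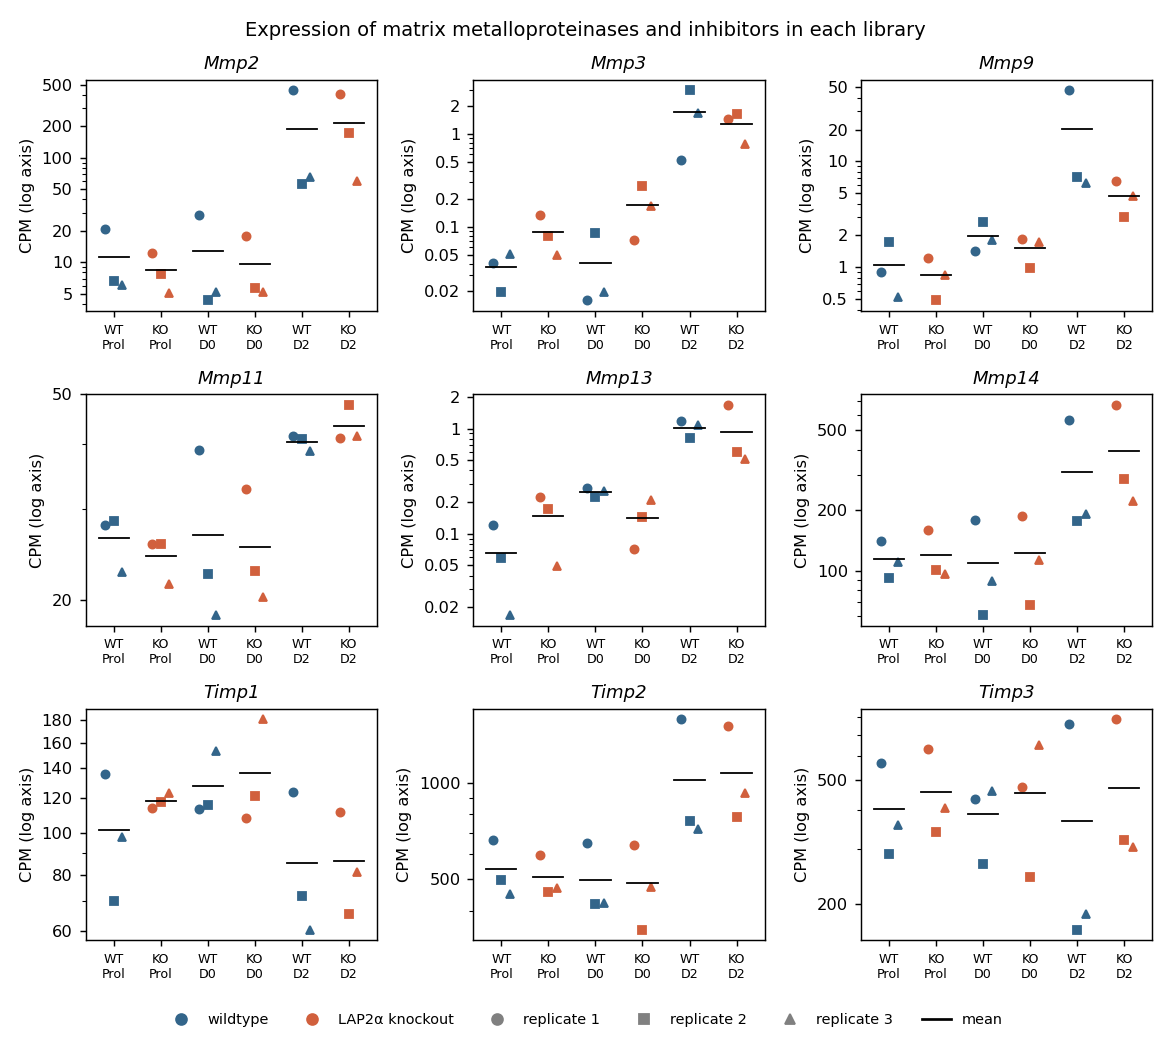
Expression of the 9 genes in each of the 18 libraries, in CPM on log axes, by genotype (colour), replicate number (marker shape) and state, with the group mean as a line. *Mmp2*, *Mmp3*, *Mmp9*, *Mmp13* and *Timp2* have all 6 D2 libraries above the 12 earlier ones. Replicate 1 is the highest of its group throughout for *Mmp2*, *Mmp14* and *Timp2*.

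The inhibitors behaved differently from each other. *Timp2* (chromosome 11, 118301069 to 118355740, minus strand), the partner of Mmp14 in activating Mmp2, was at 663, 498 and 451 CPM in WT Prol, 651, 419 and 423 in WT D0 and 1576, 763 and 716 in WT D2. KO cells had 598, 457 and 471 CPM in Prol, 640, 349 and 474 in D0 and 1499, 783 and 927 in D2. All D2 libraries were above all earlier ones. The change between D2 and Prol passed the test in KO (log2 fold change 1.03, SE 0.34, adjusted p = 0.0294) and not in WT (0.84, SE 0.34, adjusted p = 0.0722). Without the libraries of number 1 the WT value of *Timp2* was 0.64 and passed (adjusted p = 0.0329, range over all alternatives 0.000447 to 0.284). The KO call was lost without KO Prol replicate 2 or 3 or KO D2 replicate 1 (adjusted p = 0.0860, 0.0879 and 0.123, range over all alternatives 7.73e-05 to 0.123). *Cep295nl* overlaps *Timp2* on the same strand, so some reads could be assigned to either.

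*Timp1*, a secreted inhibitor that is often induced by growth factors, was at 136, 70.1 and 97.7 CPM in WT Prol, 113, 116 and 153 in WT D0 and 124, 71.9 and 60.3 in WT D2. In KO it was at 114, 117 and 123 CPM in Prol, 108, 121 and 181 in D0 and 112, 65.5 and 81.3 in D2. The KO D2 libraries lay just below the KO Prol libraries, whereas the WT groups overlapped. Neither the log2 fold change of -0.49 in KO (SE 0.30, adjusted p = 0.236) nor that of -0.27 in WT (SE 0.30, adjusted p = 0.553) passed the test. Without the libraries of number 1 the KO value was -0.72 (adjusted p = 0.0444, range over all alternatives 0.0444 to 0.550).

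*Timp3*, which unlike the other TIMPs is held in the matrix, was at 566, 289 and 359 CPM in WT Prol, 435, 269 and 462 in WT D0 and 758, 165 and 185 in WT D2. KO libraries had 631, 340 and 407 CPM in Prol, 476, 245 and 647 in D0 and 785, 322 and 304 in D2. All groups overlapped, and in WT D2 replicate 1 was high and the other 2 libraries were low. The log2 fold change between D2 and Prol was -0.45 in WT (95% confidence interval -1.60 to 0.70) and -0.06 in KO (-1.21 to 1.09). Leaving out 1 library at a time moved the WT value of *Timp3* from -1.15 (without WT D2 replicate 1) to -0.055 (without WT D2 replicate 2). *Timp1* and *Timp3* each overlap a synapsin gene, *Syn1* and *Syn3*, on the opposite strand.

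Against Prol, 4 of the 9 members passed an adjusted p of 0.05 as higher at D2 in WT (*Mmp2*, *Mmp3*, *Mmp9* and *Mmp13*) and 7 in KO (these and *Mmp11*, *Mmp14* and *Timp2*). Of all 17672 genes tested, 16.6% passed as higher in WT and 17.1% in KO. None of the members passed as lower. *Mmp3* and *Mmp13* did not pass the filter on counts in either Prol group, so they had to be higher in another group to be tested at all, and of the other 7 members 2 passed as higher in WT and 5 in KO. The D2 libraries did not overlap with the Prol libraries and were higher for 7 members in each genotype, *Mmp3* and *Mmp13* included, beside 23% of all genes in WT and 25.1% in KO, and *Timp1* was lower in this sense in KO, as were 22.6% of all genes. Without *Mmp3* and *Mmp13* the median log2 fold change of the members was 0.84 in WT and 1.03 in KO, beside -0.01 and 0.02 over all genes tested. Taking library totals without TMM factors as scaling shifted the median of all genes to 0.15 and 0.16. The count in KO was 3 without KO Prol replicate 3. Without the libraries of number 1 the count was 7 in WT and 8 in KO, with *Timp1* as the 1 lower gene. Of all 17672 genes, 6361 and 6516 passed in that fit. By unadjusted p under 0.05, a change above 1.5-fold and a minimum of 10 CPM, 5 members were higher in WT and 4 in KO, beside 10.8% and 11.3% of all genes. *Mmp3* and *Mmp13* did not reach this level in either genotype, and *Mmp9* did in WT but not in KO. That a gene passed in KO and not in WT does not show a difference between the genotypes, which is tested below.

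**Figure D2:**
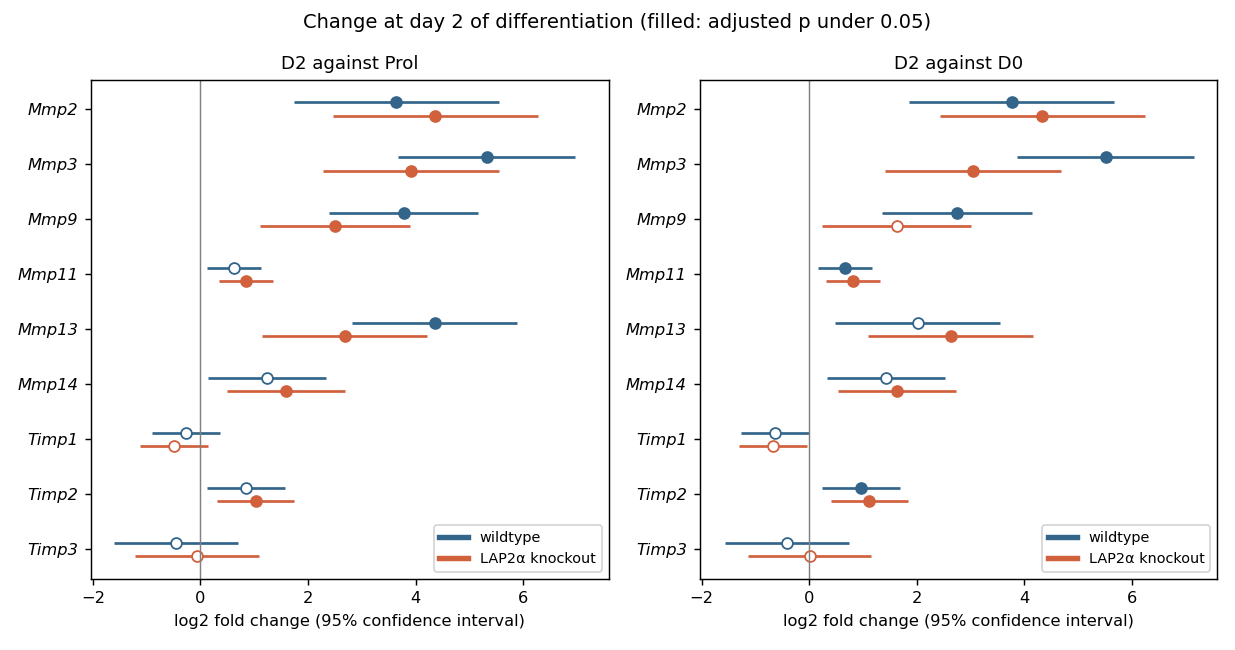
Log2 fold changes of the 9 genes at D2 against Prol (left) and against D0 (right) in WT and KO, with 95% confidence intervals as bars and filled points for an adjusted p under 0.05. All 6 MMPs lie above 0 in the 4 comparisons, from 0.62 to 5.51, and *Timp3* has intervals across 0 in each.

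D2 was also compared with D0, when the cells were nearly confluent but still in 20% serum. In WT, 5 members passed as higher (*Mmp2*, *Mmp3*, *Mmp9*, *Mmp11* and *Timp2*), with 14.7% of all genes passing in this direction. Of the 7 members other than *Mmp3* and *Mmp13*, 4 passed. *Mmp13* (log2 fold change 2.02, SE 0.72, adjusted p = 0.0507) and *Mmp14* (1.44, SE 0.52, adjusted p = 0.0517) narrowly missed the threshold, and *Mmp11* (0.67, SE 0.24, adjusted p = 0.0484) and *Timp2* (0.97, SE 0.34, adjusted p = 0.0467) narrowly passed it, with ranges over all alternatives of 0.00213 to 0.241 and 0.000173 to 0.196. The libraries did not overlap for *Mmp2*, *Mmp3*, *Mmp9*, *Mmp13* and *Timp2*, or 5 members, beside 18.7% of all genes. Leaving *Mmp3* and *Mmp13* aside, this held for 3 of 7 members. The count of calls was 3 when WT D0 replicate 2 or 3 was left out. *Mmp2* rose by 3.77 (SE 0.90, adjusted p = 0.00560), and by 2.81 without WT D2 replicate 1. The value of *Mmp3* was 5.51 (SE 0.77, adjusted p = 7.63e-05), but it had 2 counts in all in WT D0, so that it could enter the fit only by being higher at D2. *Mmp9* rose by 2.75 on the log2 scale (SE 0.65, adjusted p = 0.00556), by 1.81 without WT D2 replicate 1 and by 1.60 without the libraries of number 1 (adjusted p = 0.0502, range over all alternatives 0.00159 to 0.0502).

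In KO, 6 members passed as higher at D2 than at D0 (*Mmp2*, *Mmp3*, *Mmp11*, *Mmp13*, *Mmp14* and *Timp2*), beside 15.3% of all genes. *Mmp3* and *Mmp13* did not pass the filter in KO D0, so the same holds here, and 4 of the other 7 members passed. *Mmp2* rose by 4.33 on the log2 scale (SE 0.90, adjusted p = 0.00192), or by 3.66 without KO D2 replicate 1, *Mmp3* by 3.04 (SE 0.77, adjusted p = 0.00763) and *Mmp13* by 2.63 (SE 0.72, adjusted p = 0.0123). The changes of *Mmp14* (1.63, SE 0.52, adjusted p = 0.0267), *Timp2* (1.12, SE 0.34, adjusted p = 0.0212) and *Mmp11* (0.81, SE 0.24, adjusted p = 0.0179) were smaller. All 6 MMPs and *Timp2* had D2 libraries above all D0 libraries, 7 members in all, beside 20.2% of all genes. Leaving *Mmp3* and *Mmp13* aside, this held for 5 of 7 members. *Mmp13* was at 1.67 without the libraries of number 1 (adjusted p = 0.117, range over all alternatives 0.00153 to 0.117). The count of calls was 3 without KO D0 replicate 3 or without KO D2 replicate 1. *Mmp9* had a log2 fold change of 1.62 (SE 0.65, adjusted p = 0.0763), which passed with the replicate number as a block (adjusted p = 0.0350, range over all alternatives 0.0338 to 0.193). *Timp1* was at -0.66 (SE 0.30, adjusted p = 0.110) and passed with the block as lower (adjusted p = 0.0458, range over all alternatives 0.0106 to 0.385). Neither passed with the block as a random effect. In WT, *Timp1* was at -0.63 (SE 0.30, adjusted p = 0.135, range over all alternatives 0.0110 to 0.410) and passed as lower without WT D2 replicate 1 (-0.937, adjusted p = 0.0287). Without the libraries of number 1 it was at -1.02 and passed as lower in both genotypes (adjusted p = 0.0110 in WT and 0.0106 in KO). D2 against Prol and D2 against D0 share the D2 libraries and are not independent.

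At near confluence, before serum was lowered, no member was called. Between D0 and Prol, none of the members passed an adjusted p of 0.05 in limma or with voom weights, beside 0.00566% of all genes in WT (1 gene) and 0% in KO. At an unadjusted p of 0.05, 1 member passed in WT and 0 in KO, beside 2.17% and 1.12% of all genes. That member was *Mmp13*, with 20 counts in WT D0 against 5 in WT Prol, a ratio of 4.30 (95% interval 1.57 to 14.7) and a log2 fold change of 2.33 (SE 0.72, adjusted p = 1.00). Its 3 WT D0 libraries were above the 3 WT Prol libraries, as in 3.1% of all genes, but in KO the log2 fold change was 0.05 (SE 0.72, adjusted p = 1.00). *Mmp9* was higher in D0 in 3 of 3 replicate numbers of both genotypes, with log2 fold changes of 1.03 in WT and 0.88 in KO (SE 0.65 each, adjusted p = 1.00 each).

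The summed level of the 6 MMPs, in CPM per kilobase, was 51.0 ± 10.3 in WT Prol, 50.4 ± 27.7 in WT D0 and 183 ± 147 in WT D2 (SD, n = 3). In KO it was 50.7 ± 12.8, 52.7 ± 23.5 and 213 ± 132. The 6 D2 libraries ranged from 94.9 to 362, above the 30.8 to 82.1 of the 12 earlier libraries. The 3 TIMPs summed to 345 ± 94.6, 361 ± 52.0 and 449 ± 240 in WT Prol, D0 and D2 and to 368 ± 49.4, 383 ± 93.8 and 486 ± 185 in KO, with overlapping libraries. As a percentage of the TIMP sum, the MMP sum was 9.84% to 20.8% before D2 and 26.8% to 51.9% at D2. Without the libraries of number 1 the MMP sum was 30.8 to 46.5 before D2 and 94.9 to 168 at D2, and its percentage 9.84% to 15.9% and 26.8% to 47.4%. It stayed below the TIMP sum in all 18 libraries. These sums are dominated by *Mmp14*, *Mmp2* and the TIMPs and refer to RNA, with the longest coding transcript in GENCODE M21 taken as length.

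**Figure D3:**
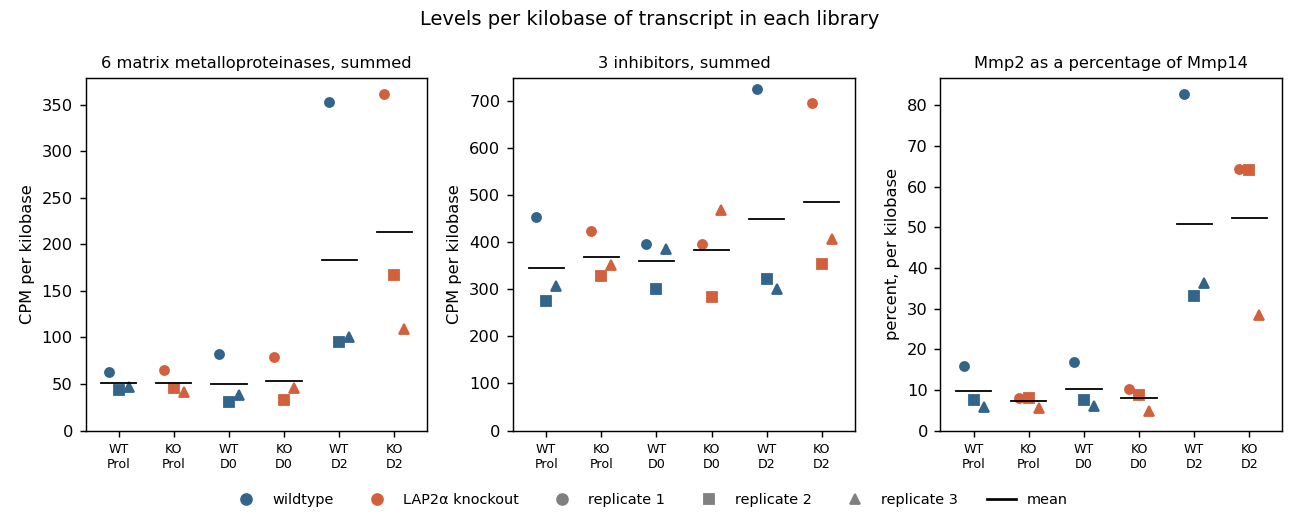
Levels per kilobase of transcript in each library, with the 6 MMPs summed (left), the 3 TIMPs summed (middle) and *Mmp2* as a percentage of *Mmp14* (right), by genotype, replicate number and state, and the group mean as a line. The MMP sum and the *Mmp2* percentage are higher in all 6 D2 libraries than in the 12 earlier ones, while the TIMP sums overlap.

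The comparison of KO with WT asked whether loss of LAP2α changed these genes. None of the 9 members passed an adjusted p of 0.05 in Prol, D0 or D2, with or without the replicate block, with voom weights or without the libraries of number 1. Among all genes, 0.00566% passed in Prol (1 gene) and 0% in D0 and in D2. At an unadjusted p of 0.05, 0 members passed in Prol, 1 in D0 and 1 in D2, beside 1.11%, 1.47% and 1.96% of all genes.

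The member in D2 was *Mmp9*, with a log2 fold change of -1.51 (SE 0.65, 95% confidence interval -2.89 to -0.12, unadjusted p = 0.0353 and adjusted p = 1.00 in limma). It was lower in KO for 3 of 3 replicate numbers, but the groups overlapped, with KO replicate 1 at 6.49 CPM above WT replicate 3 at 6.26. The difference was -0.57 without WT D2 replicate 1 and -0.83 without both libraries of number 1. With the rule of unadjusted p under 0.05, a change above 1.5-fold and a minimum of 10 CPM, *Mmp9* was the 1 member that passed, beside 0.464% of all genes, and the 10 CPM were reached in WT D2 replicate 1 alone.

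The other genes at D2 had intervals of various width. For *Mmp11* the log2 fold change was 0.10 (95% confidence interval -0.40 to 0.61), for *Timp1* 0.05 (-0.58 to 0.68) and for *Timp2* 0.11 (-0.61 to 0.83), so this fit leaves room for changes below about 1 on the log2 scale in either direction. For *Mmp14* it was 0.39 (-0.71 to 1.49) and for *Timp3* 0.58 (-0.57 to 1.73), and both were higher in KO for 3 of 3 replicate numbers. With 1 library left out, *Timp3* ranged from 0.135 (without KO D2 replicate 1) to 1.28 (without WT D2 replicate 1). The intervals of *Mmp2* (0.46, -1.44 to 2.37), *Mmp3* (-0.16, -1.80 to 1.48) and *Mmp13* (-0.33, -1.87 to 1.20) were wider still. All these intervals are from the fit without the replicate block. Same-numbered libraries deviated together in this comparison (correlation across genes 0.645, 0.367 and 0.276). With the block the SE was 0.36 rather than 0.90 for *Mmp2*, 0.23 rather than 0.52 for *Mmp14* and 0.16 rather than 0.34 for *Timp2*. In D0, *Mmp3* had 17 counts in KO and 2 in WT, a ratio of 7.0 (95% interval 1.66 to 62.5) and a log2 fold change of 2.31 (SE 0.77, unadjusted p = 0.00886 and adjusted p = 1.00), with overlapping libraries. *Mmp13* was lower in the 3 KO D0 libraries than in the 3 WT D0 libraries, as was the case for 1.91% of all genes, with 13 against 20 counts and a log2 fold change of -0.95 (SE 0.72, adjusted p = 1.00).

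Whether the change from Prol to D2 differed between genotypes was tested as an interaction. None of the members passed, neither at an adjusted nor at an unadjusted p of 0.05, and 0% of all genes passed the adjusted and 0.945% the unadjusted threshold. The KO effect at D2 minus that in Prol was -1.28 for *Mmp9* (95% confidence interval -3.24 to 0.69, unadjusted p = 0.186) and -1.67 for *Mmp13* (-3.84 to 0.50, unadjusted p = 0.122, the smallest of the 9). For *Mmp9* it was -0.34 without WT D2 replicate 1 and -0.27 without the libraries of number 1.

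**Figure D4:**
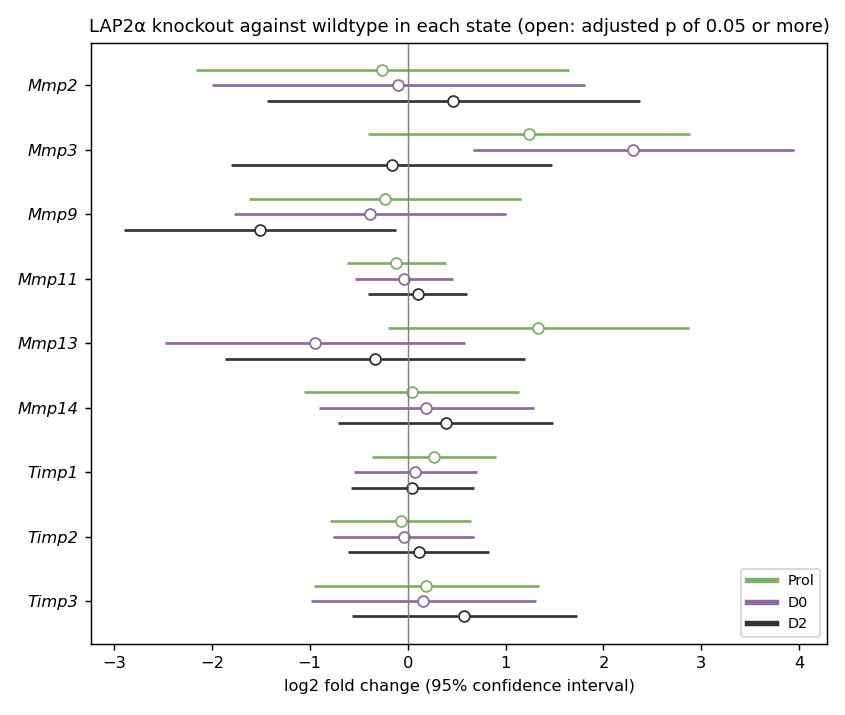
Log2 fold changes between KO and WT for the 9 genes in Prol, D0 and D2, with 95% confidence intervals as bars. All points are open, as none had an adjusted p under 0.05, and only *Mmp9* in D2 and *Mmp3* in D0 have intervals that leave out 0.

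Of 18 further genes of the families (other MMPs and *Timp4*), 10 had a row and 8 passed the filter, and 3 of these 8 were higher at D2 than in Prol in WT and 4 in KO, with none lower, beside 16.6% and 17.1% of all genes that were higher. *Mmp19* rose from 4.41, 2.78 and 2.99 CPM to 29.9, 26.2 and 26.4 in WT and from 4.93, 5.06 and 2.75 to 33.1, 33.3 and 30.5 in KO. Its log2 fold changes were 3.05 and 2.98 (SE 0.43 each, adjusted p = 6.32e-05 and 7.86e-05). *Mmp15*, a membrane-bound MMP like *Mmp14*, went from 5.88, 6.41 and 4.61 to 57.0, 30.0 and 34.2 CPM in WT and from 6.79, 5.54 and 3.53 to 40.9, 30.3 and 28.6 in KO. *Mmp23* rose by 1.70 and 1.88 on the log2 scale (SE 0.40 each, adjusted p = 0.00395 and 0.00176). *Mmp28* passed in KO (1.90, SE 0.62, adjusted p = 0.0276) and not in WT (1.56, SE 0.62, adjusted p = 0.0702). The membrane-bound *Mmp16* was at 20.7 to 55.1 CPM in the 18 libraries and did not pass, nor did *Mmp12*, *Mmp17* and *Mmp24*, which stayed below 2 CPM. *Mmp25* and *Timp4*, at 0.0198 to 0.263 CPM, were not tested.

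**Figure D5:**
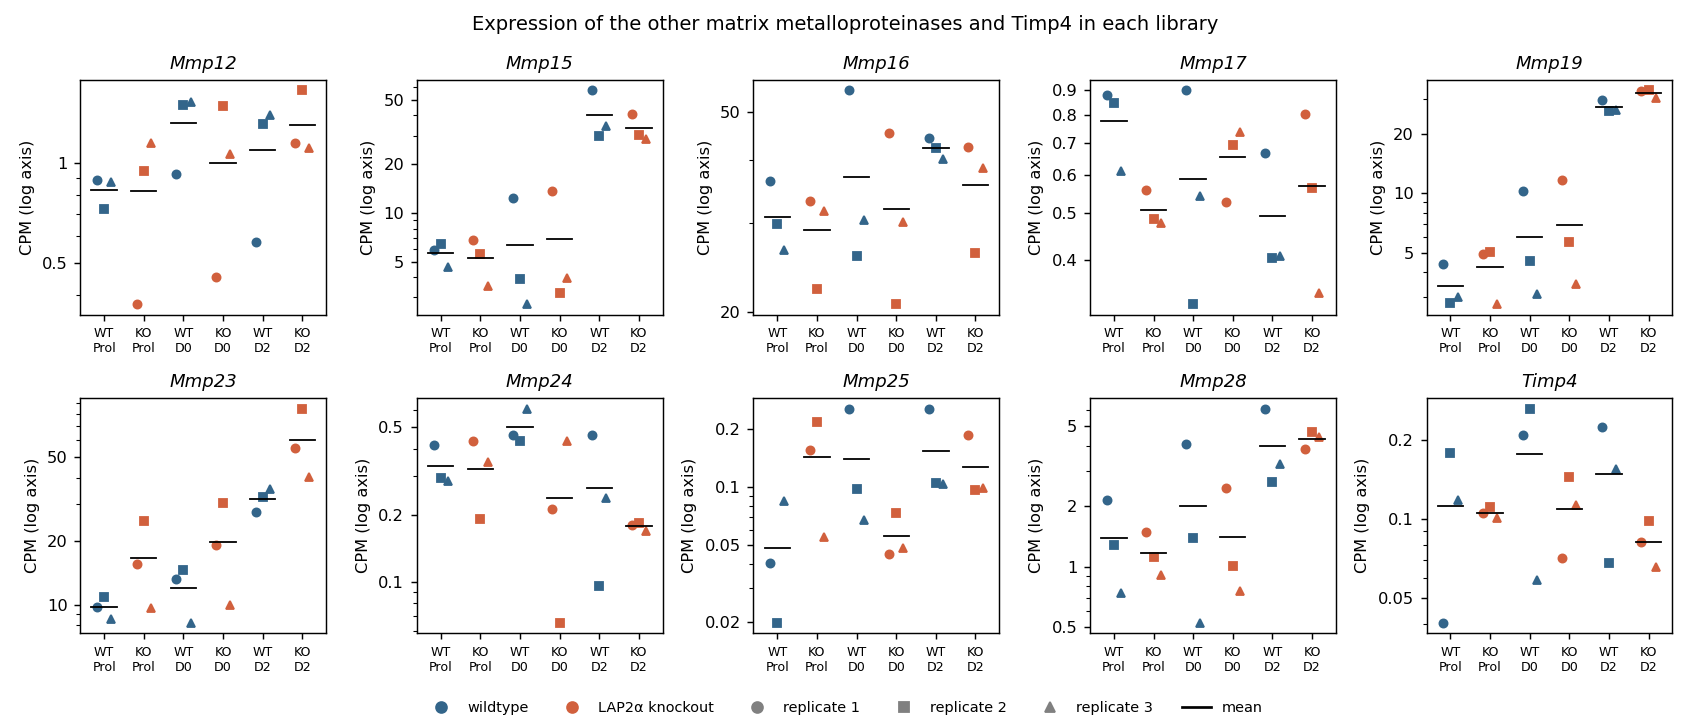
Expression of the 10 further MMP and TIMP genes with a row, in CPM on log axes, for the 18 libraries by genotype, replicate number and state, with the group mean as a line. *Mmp19* and *Mmp15* have all 6 D2 libraries above the 12 earlier ones, and *Mmp25* and *Timp4* stay below 0.3 CPM.

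Genes that act with the MMPs were counted from lists chosen by function. Including the 8 genes above, 83 genes of 5 lists were tested, and 22 of them passed between D2 and Prol in WT, with 19 higher, and 24 in KO, with 21 higher, beside 30.7% and 32.3% of all genes in either direction. With the replicate block the KO count was 48, in a fit where 8580 of all 17672 genes passed. Among MMP substrates, 6 of 23 were higher in both genotypes and none lower, beside the 16.6% and 17.1% of all genes that were higher. *Dcn*, a small proteoglycan that binds collagen, rose by 8.08 in WT and 8.30 in KO on the log2 scale (SE 0.80 each), *Col3a1*, a fibrillar collagen, by 3.37 in KO (SE 0.46), and *Igfbp5*, a secreted binding protein of insulin-like growth factors, by 6.96 and 6.46 (SE 0.40 each). *Eln*, which encodes elastin, had 0 counts in the 3 WT Prol libraries and was at 0.924 to 3.79 CPM in WT D2. It is among the 6 substrates counted as higher, but could enter the fit only by being above its WT Prol level in another group.

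Of 17 genes for activation and surface partners, *Plat*, the tissue plasminogen activator, and *Thbs2*, a matrix protein that helps to clear Mmp2, were higher at D2 in both genotypes, and *Plaur*, the urokinase receptor, was lower. *Plat* rose by 2.70 in WT and 2.66 in KO (SE 0.28 each) and *Thbs2* by 2.51 and 3.27 (SE 0.63 each), while *Plaur* fell by 2.20 and 2.10 on the log2 scale (SE 0.59 each). Of these 17 genes, 2 were higher and 1 lower in WT, and 3 were higher and 1 lower in KO. Among all genes, 30.7% passed in either direction in WT and 32.3% in KO. Among ADAM and ADAMTS proteases, 7 of 16 were higher in WT and 7 in KO, beside 16.6% and 17.1% of all genes, and none lower. The lists differed in *Adamts9*, which passed in WT and had an adjusted p of 0.0504 in KO, and *Adamts15*, which passed in KO and had an adjusted p of 0.0624 in WT. *Adamts4*, an aggrecanase, rose by 3.62 and 3.05 (SE 0.35 each), and *Adam33* by 4.12 and 3.74 (SE 0.94 each) from a level near the detection limit. *Adamts9* rose by 2.51 in WT (SE 0.68) and *Adamts15* by 2.87 in KO (SE 0.77).

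Of 19 regulators of MMP genes, 1 was higher and 2 were lower at D2 in each genotype. Among all genes, 30.7% passed in either direction in WT and 32.3% in KO. The lower ones were *Fosl1*, a component of AP-1, with log2 fold changes of -3.22 in WT and -3.03 in KO (SE 0.73 each, adjusted p = 0.00314 and 0.00455), and *Etv4*, a factor that binds the PEA3 motif, with -2.69 and -2.54 (SE 0.42 each). *Runx1*, a transcription factor, rose by 1.32 in WT (SE 0.38) and *Tgfb1*, which encodes a growth factor, by 0.85 in KO (SE 0.29). Between KO and WT at D2, 0 of the 83 genes passed an adjusted p of 0.05 in limma and 0 with voom weights. An unadjusted p under 0.05 was seen for 3 of the 83, beside 1.96% of all genes.

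Markers of other cell types that can express MMPs moved in part with the D2 state. Of 6 fibroblast markers, 5 were higher at D2 than in Prol in both genotypes, beside 16.6% (WT) and 17.1% (KO) of all genes. Their summed level was 20.4 to 52.4 CPM in the 6 Prol libraries and 188 to 394 in the 6 D2 libraries. *Pdgfra* made up most of it before D2 (13.1 to 77.2 CPM in Prol and D0), whereas *Lum* and *Col14a1* were below 0.3 CPM. Over the same interval 5 of the 6 muscle markers with a row were higher in both genotypes, beside the same shares of all genes. Their sum went from 39.9 to 53.2 CPM to 524 to 1413 CPM. Their part in the change of the MMPs was not tested. Macrophage markers with a row, *Cd68* and *Csf1r*, summed to 4.74 to 6.61 CPM in Prol and 3.62 to 4.42 in D2, and the endothelial markers *Pecam1*, *Kdr* and *Tek* to 1.14 to 1.53 and 1.28 to 2.46. *Csf1r* was lower at D2 in both genotypes, and 2 of the 3 endothelial markers were higher at D2 in KO, beside 17.1% of all genes. The 5 neutrophil markers looked for had no row, nor had 4 of the 6 macrophage markers, the muscle marker *Pax7* and the endothelial marker *Cdh5*.

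Genes with the most similar pattern over the 6 groups were sought for the 3 members with the widest range of group means, by the root mean square difference of group means on the log2 scale after centring each gene. For *Mmp2*, whose group means spanned 4.36, these were *Itgb2* (difference 0.12), *Cemip* (0.17) and *Sema5a* (0.19). *Cemip*, which encodes a protein that binds hyaluronan, had means of 5.94 to 23.9 CPM in Prol and D0 and 136 and 171 in WT and KO D2, while *Itgb2* did not exceed 2.98 CPM in a library. For *Mmp3* they were *Ifit3b* (0.46), *Txlnb* (0.49) and *Nlrc5* (0.50), and for *Mmp13* *Tmem178b* (0.23), *9130213A22Rik* (0.26) and *Gstm4* (0.29). These last 6 genes did not exceed 5.10 CPM in any library.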

How the data were processed

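RNA was polyA-enriched and sequenced from strand-specific libraries with single-end reads in 18 libraries of 6 groups, with groups and replicate numbers from the labels. Per the study's methods, the authors used cutadapt for trimming, NextGenMap for alignment to GRCm38 transcripts and RSEM for expected counts, a filter on low expression (over 5 expected counts in 3 libraries, which not all deposited genes meet within a group), and computed TMM factors with edgeR. The deposited values are CPM of expected counts plus 0.5 (another unit than counts or plain CPM), from which expected counts were recovered. Of recovered counts under 20, 37.6% to 50% were whole within 0.01, so no count test was run.

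Log2 values were fitted with limma 3.58.1 in R 4.3.3 (lmFit, eBayes with trend), with 6 groups, 18 libraries and 17672 genes, each above 5 expected counts throughout at least 1 group, and p-values were adjusted by Benjamini-Hochberg over these genes. *Mmp3* passed this filter only in the D2 groups and *Mmp13* only there and in WT D0. Positions and lengths are from GENCODE M21. Intervals of ratios of summed counts are exact and cover counting error only. In simulated data for WT D2/Prol with 17672 genes, the fit called 63 of 100 genes with a 2-fold change, 100 of 100 with a 4-fold change and 9 unchanged genes. The simulated libraries varied independently, with the same dispersion for all genes and no effect of the replicate number. Changes were placed only in genes well above the filter on counts. These rates therefore do not carry over to members with few counts or a wide spread between libraries.

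All members were named, and of each other list up to 3 called genes with the largest change in each genotype, and every further MMP gene and *Timp4*. Members and lists were chosen with earlier results of these data known. Same-numbered libraries deviated together (correlation across genes over 0.1 for all 3 numbers) in each comparison other than WT D2/Prol (0.0393 for number 3) and WT D2/D0 (0.0100), so the replicate block is given where it changed a call of the other comparisons. The labels give no sequencing lane. Alternatives were scaling by library totals or by median of ratios, voom weights, no filter, a pseudocount of 1 CPM, a fit of only the groups compared, the replicate block, also as a random effect with voom, each library left out, and a rule after that of the study (unadjusted p under 0.05, above 1.5-fold, at least 10 CPM). The study's methods give 1.5 as a log2 fold change, and taken as written this rule is more lenient. Without a block it called 4167 genes in WT D2/Prol, close to the number in the paper, and 82 in KO/WT D2, far fewer than the paper reports. With the replicate block it called 4788 and 213, the latter close to the paper's number for KO/WT D2. With the block as a random effect in voom and no filter it called 4750 and 293. The fit without the libraries of number 1 was added after the data had been seen. Python 3.11.15 and matplotlib 3.10.9 were used for tables and figures.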

Additional observations from a re-analysis of the deposited data

How the results depend on the processing

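The 22 called changes of members kept their direction under all alternatives run, and 35 of their 330 alternative values missed the threshold. Members called in WT D2/Prol were 7 rather than 4 with library totals, with the replicate block, with the block as a random effect in voom, and without the libraries of number 1. Genes passing as higher among all tested went from 2940 to 3470, 4311, 4237 and 3255 in these fits, in the same order. By unadjusted p, 1.5-fold and 10 CPM, 4 members were called in KO D2/Prol and 1 in KO/WT D2. With the replicate block, calls among the 83 pathway genes rose from 22 to 44 in WT D2/Prol and from 24 to 48 in KO D2/Prol. Over all 17672 genes they rose from 5424 to 8431 and from 5706 to 8580. With the random block and no filter the lists had 40 and 43 calls, and all genes 8096 and 8410. By unadjusted p, 1.5-fold and 10 CPM, 2 genes of the lists were called in KO/WT D2, beside 0.464% of all genes. In WT D2/Prol and WT D2/D0, where the replicate number did not pair all libraries, the block made *Mmp11*, *Mmp14* and *Timp2* pass in the former (adjusted p = 0.00984, 0.000437 and 0.000447) and *Mmp13* and *Mmp14* in the latter (0.0247 and 0.000153). It changed no call of a member other than these and those given above.

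With 1 library left out, the members called ranged from 4 to 4 in WT D2/Prol, 3 to 7 in KO D2/Prol, 3 to 6 in WT D2/D0 and 3 to 6 in KO D2/D0. Changes of sign were seen only for uncalled values. In KO D2/Prol *Timp3* was at 0.072 with library totals, and in KO D2/D0 at -0.347 without the libraries of number 1. *Mmp13* in KO D0/Prol was at -0.0066 with a pseudocount of 1 CPM. When 1 library was left out, *Mmp13* in KO D0/Prol ranged from -0.61 to 0.478, *Timp3* from -0.502 to 0.195 in KO D2/Prol and from -0.433 to 0.316 in KO D2/D0. In KO/WT D2 the ranges were -0.201 to 1.42 for *Mmp2*, -0.859 to 0.396 for *Mmp3*, -0.080 to 0.929 for *Mmp14*, -0.168 to 0.352 for *Timp1* and -0.159 to 0.477 for *Timp2*. The causes were not tested. Depth limits *Mmp3* and *Mmp13* before D2, which had 0 to 10 expected counts per library.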
